A study of Mus musculus with 24 samples.

Results

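The genes described here drive the cell division cycle. They were 40 listed genes of DNA replication, mitosis and the control of the G1/S transition, of which 36 were measured, each by a probe set that names exactly 1 of them, among 19505 genes named on the array. These 36 comprised 11 replication genes, 20 mitotic genes and 5 genes of G1/S control and transcription. Mcm7, Ccnb1, Ccnd1 and Foxm1 were not analysed here. The rule for membership names genes by function and sets no measured threshold, although the list was drawn up with earlier results of these data known.

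Expression was measured on 24 single-colour arrays of the outbred mouse strain ICR-CD1, 4 in each of 6 groups. The animals were grandoffspring of control or of obese grandfathers, the latter labelled SL, an abbreviation that the labels do not spell out. Material named whole embryo was collected at embryonic day 7.5 (ED7.5) and embryonic day 14.5 (ED14.5), and liver was collected at postnatal day 7.5 (PD7.5), each in a control and an SL group. No agent, transgene or deletion is named for any group, and separate litters or animals are not stated for the arrays of a group. P-values therefore measure only the spread between these samples, which may be technical.

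A cell copies its DNA once per cycle and then segregates the copies in mitosis. Licensing factors load the MCM helicase onto replication origins in G1, cyclin E with Cdk2 and the E2F transcription factors open S phase, and cyclin A, cyclin B and Cdk1 carry the cell into mitosis, where the spindle checkpoint holds back chromosome separation. In the mouse the fetal liver is the main site of red cell formation before the bone marrow takes over, and both its hepatoblasts and its erythroid precursors divide.

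The names of the samples were set against marker genes first. A gene counted as above background on an array when it exceeded the value below which 75% of that array's 5222 negative control features lay. On the ED7.5 arrays all 12 markers of decidua, uterine tissue of the mother, were above background on every array, whereas of 10 markers of the epiblast and its first derivatives Nanog, Fgf5, Sox2, Mixl1 and Mesp1 were above background on none. Of the other epiblast markers Eomes was above background on all ED7.5 arrays, Dnmt3b on 3 of 4 in each arm, Pou5f1 on 2 control and 0 SL arrays, Utf1 on 2 and 1, and Otx2 on 1 and 0. On the ED14.5 arrays all 11 hepatocyte markers and all 11 measured markers of definitive erythroid cells were above background on every array, whereas of 7 neuronal genes Dcx, Elavl3, Elavl4, Stmn2 and Snap25 were above it on none. The other neuronal genes at ED14.5 were Map2, above background on 2 control and 3 SL arrays, and Tubb3, on 1 and 2. On the liver arrays all 11 hepatocyte markers were above background on every array. Most epiblast markers at ED7.5 and most neuronal markers at ED14.5 were thus undetected in part or all of the arrays labelled whole embryo, and age and tissue cannot be told apart in any difference between ages. All 36 cell cycle genes were above background on all 24 arrays.

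Promoters of the cell cycle are known for 2 kinds of element, the E2F element of S-phase genes and the cell cycle homology region (CHR) of mitotic genes, the latter often near CCAAT boxes. RefSeq windows from 250 bases before to 50 bases after the gene start (GRCm38.p6) were found for 30 of the 36 genes, and the first listed window of each gene was searched on both strands. The E2F element was searched as TTGGCGC or as TTGCCGC, and also as TTCGCGC or as TTCCCGC. The CHR was searched as TTTGAA or as TTCGAA, and the CCAAT box by the letters of its name. The stretches below are shown because they hold the matches that set the replication windows apart from the mitotic ones in composition. They were picked after the matches were seen, run 5′ to 3′ along the strand of the gene, and carry every match to any of these motifs in capitals. In Mcm5 and in Mcm6 E2F matches on opposite strands overlap.
Cdc6, an origin licensing factor, chr11:98907963-98908049, plus strand: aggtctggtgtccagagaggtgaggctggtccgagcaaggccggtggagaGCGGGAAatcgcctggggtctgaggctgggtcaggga
Mcm5, a helicase subunit, chr8:75109310-75109396, plus strand: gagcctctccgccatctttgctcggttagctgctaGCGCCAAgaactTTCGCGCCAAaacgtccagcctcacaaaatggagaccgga
Mcm6, a helicase subunit, chr1:128359712-128359798, minus strand: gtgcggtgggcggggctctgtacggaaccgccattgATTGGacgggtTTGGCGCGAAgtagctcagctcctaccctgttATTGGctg
Rrm1, the large subunit of ribonucleotide reductase, chr7:102441578-102441664, plus strand: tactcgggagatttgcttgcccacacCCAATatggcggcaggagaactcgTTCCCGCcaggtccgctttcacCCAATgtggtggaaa
Cdk1, the mitotic kinase, chr10:69352898-69352977, minus strand: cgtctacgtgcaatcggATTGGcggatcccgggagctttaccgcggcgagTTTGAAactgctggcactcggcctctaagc
Ccnb2, a B-type cyclin, chr9:70421540-70421600, minus strand: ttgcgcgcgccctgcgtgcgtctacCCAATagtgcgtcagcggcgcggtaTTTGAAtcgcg
Cdc20, an activator of the anaphase-promoting complex, chr4:118437329-118437411, minus strand: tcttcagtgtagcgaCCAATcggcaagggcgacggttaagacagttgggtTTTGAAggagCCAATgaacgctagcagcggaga
Ttk, a spindle checkpoint kinase, chr9:83834646-83834703, plus strand: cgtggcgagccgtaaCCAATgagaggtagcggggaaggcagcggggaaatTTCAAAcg

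The E2F element was found in 7 of 10 replication windows and in 2 of 16 mitotic windows, against 12.6% of the 15691 windows of genes on the array. The CHR was found in 1 of 10 replication windows and in 13 of 16 mitotic windows, against 17.4% of those 15691. CCAAT was found in 7 of 10 and 14 of 16, against 38.8%. Lists of other cell cycle genes gave the E2F element in 15 of 29 replication windows and 11 of 42 mitotic windows, and the CHR in 7 of 29 and 28 of 42. The G1/S windows held the E2F element in 1 of 4 and the CHR in 0 of 4. Matches of the other kind were found in Mcm2, a replication gene with a CHR match at position -70 from the start, and in Mki67 and Cdk1, mitotic genes with E2F matches. The replication windows of Mcm2, Pcna and Tyms held no E2F match, and the mitotic windows of Birc5, Cenpe and Nusap1 no CHR match. A match is a run of letters and not a shown binding site.

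**Figure D1:**
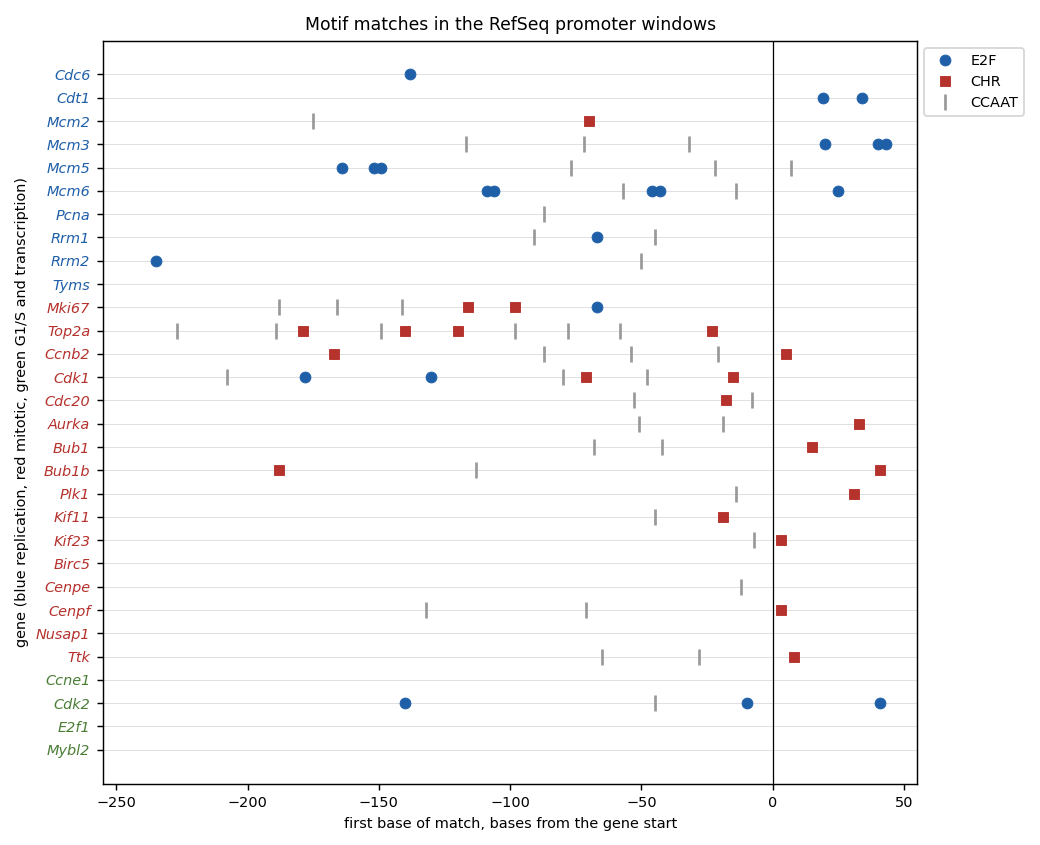
Positions of E2F, CHR and CCAAT matches (first base, in bases from the gene start) in the 30 promoter windows, 1 line per gene. E2F matches (circles) lie mainly in the replication genes, in 7 of 10 windows, and CHR matches (squares) in the mitotic genes, in 13 of 16 windows.

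From ED7.5 to ED14.5 most of these genes rose. In limma, with p-values adjusted by the Benjamini-Hochberg method over all 19505 genes and a threshold of 0.05, 34 of the 36 genes were higher and 1 was lower at ED14.5 in the control arm, where 25.6% of all genes were called higher and 26.3% lower. The same counts, 34 higher and 1 lower, were found in the SL arm, where 26.4% of all genes were called higher and 27.1% lower. The arms share no array, and the same 34 genes rose in both, while 21.5% of all genes were called higher in both. The median log2 difference over the 36 genes was 1.69 in the control arm and 1.73 in the SL arm, against 0.03 and 0.01 over all genes. The exceptions were the 2 subunits of ribonucleotide reductase, the enzyme that makes deoxyribonucleotides: Rrm2 fell and Rrm1 was not called.

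The licensing and helicase genes rose together. Cdc6, which loads the helicase onto origins, read 7.91, 7.85, 7.89 and 7.77 (log2) on the ED7.5 control arrays and 10.51, 10.63, 10.65 and 10.58 on the ED14.5 control arrays. The SL arrays gave 7.99, 8.05, 7.99 and 7.82 at ED7.5 and 10.30, 10.41, 10.47 and 10.53 at ED14.5. Every ED14.5 array was thus above every ED7.5 array in both arms. The difference for Cdc6 was 2.73 ± 0.09 (SE, n = 4 per group) in the control arm, 6.65-fold, and 2.47 ± 0.10 in the SL arm, 5.52-fold. The limma adjusted p-values for Cdc6 were 4.83e-09 and 2.18e-08. Cdt1, its partner in loading, rose by 2.18 and 2.07. The helicase subunits Mcm2, Mcm3, Mcm4, Mcm5 and Mcm6 rose by 2.01, 1.66, 1.45, 2.00 and 2.04 in the control arm and by 1.85, 1.72, 1.47, 1.89 and 2.06 in the SL arm.

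The genes of nucleotide supply and of the replication fork moved in different directions. Tyms, thymidylate synthase, rose by 1.71 and 1.72 in the control and SL arms, and Pcna, the sliding clamp of DNA polymerase, by 1.23 and 1.32. Rrm2, the small subunit of ribonucleotide reductase, read 13.34, 13.36, 13.21 and 13.29 on the ED7.5 control arrays and 12.14, 12.23, 12.12 and 12.06 on the ED14.5 control arrays. In the SL arm Rrm2 read 13.37, 13.21, 13.27 and 13.21 at ED7.5 and 12.15, 12.10, 12.24 and 12.23 at ED14.5. All 8 ED14.5 arrays lay below all 8 ED7.5 arrays. Rrm2 fell by 1.16 ± 0.10 in the control arm and by 1.09 ± 0.09 in the SL arm (SE, n = 4 per group, limma adjusted p = 2.51e-06 and 3.69e-06). Rrm1, the large subunit, averaged 11.45 ± 0.09 at ED7.5 and 11.51 ± 0.05 at ED14.5 on the control arrays (SD, n = 4 each), which overlapped. Its difference was 0.06 (95% interval -0.16 to 0.28) in the control arm and 0.08 (-0.14 to 0.30) in the SL arm, with limma adjusted p = 0.639 and 0.522.

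All 5 genes of G1/S control rose in both arms, with a median difference of 2.27 in the control arm and 2.28 in the SL arm. Mybl2, the transcription factor B-Myb that acts on late cell cycle genes, read 7.77, 7.51, 8.02 and 8.39 on the ED7.5 control arrays and 10.61, 10.71, 10.54 and 10.53 on the ED14.5 control arrays. In the SL arm Mybl2 read 7.62, 7.31, 7.86 and 7.39 and then 10.76, 10.81, 10.68 and 10.77. Its arrays did not overlap between the ages in either arm. The difference for Mybl2 was 2.68 ± 0.17 in the control arm and 3.21 ± 0.13 in the SL arm (SE, n = 4 per group, limma adjusted p = 4.18e-07 and 2.48e-08). Ccne1 and Ccne2, the E-type cyclins, rose by 2.28 and 2.22 in the control arm and by 2.28 and 1.98 in the SL arm. E2f1, an activating E2F factor, rose by 2.27 and 2.37, and Cdk2, the kinase bound by E-type cyclins, by 1.35 and 1.37.

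All 20 mitotic genes rose in both arms, by 1.20 (Cdk1) to 2.47 (Mki67) in the control arm and by 1.05 (Tpx2) to 2.40 (Mki67) in the SL arm. Mki67, which coats mitotic chromosomes and is the usual stain for dividing cells, read 10.33, 10.61, 10.65 and 10.45 on the ED7.5 control arrays and 13.01, 12.92, 13.03 and 12.97 on the ED14.5 control arrays. The 2 sets did not overlap, and the difference of 2.47 corresponds to 5.55-fold (limma adjusted p = 2.2e-08). The spindle motors Kif11 and Kif23 rose by 2.07 and 2.01 in the control arm, and Kif20a, a motor of cytokinesis, by 1.42. The kinetochore proteins Cenpf and Cenpe rose by 1.96 and 1.86, and the spindle proteins Nusap1 and Tpx2 by 1.91 and 1.40. The checkpoint kinases Bub1 and Ttk rose by 1.68 and 1.33, and Bub1b, a checkpoint protein, by 1.63. The kinases Aurka, Aurkb and Plk1 rose by 1.91, 1.44 and 1.53, and Birc5, a partner of Aurkb in the chromosomal passenger complex, by 1.64. The cyclins Ccnb2 and Ccna2 rose by 1.81 and 1.57, Top2a, which untangles sister DNA, by 1.64. Cdc20 rose by 1.45 in the SL arm.

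**Figure D2:**
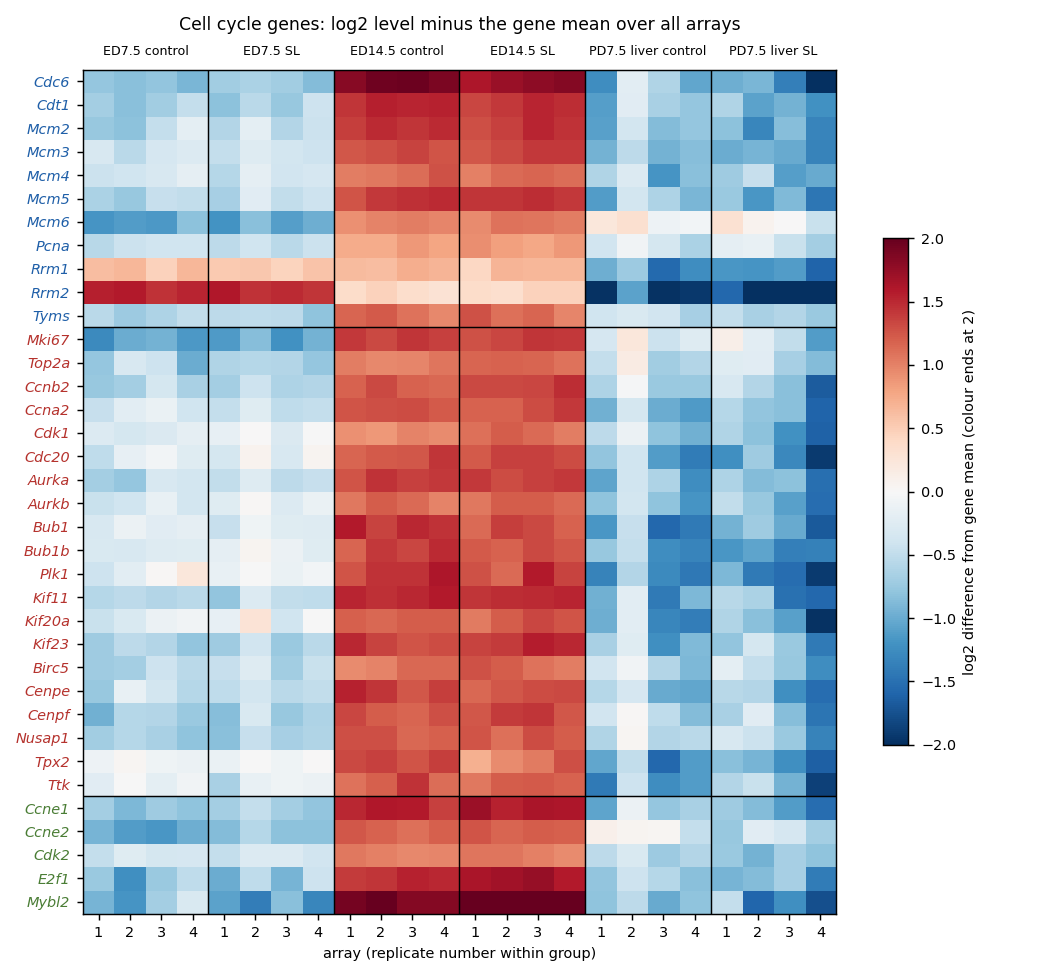
Log2 level of each of the 36 genes (lines; names blue for replication, red for mitosis, green for G1/S control and transcription) on each of the 24 arrays (columns), as the difference from the gene's mean over all arrays; colours end at differences of 2. The ED14.5 columns are highest for all genes but Rrm2, whose highest columns are those of ED7.5, and Rrm1, whose ED7.5 and ED14.5 columns overlap.

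The liver arrays lay below the ED14.5 arrays for every gene. All 36 genes fell in the control arm, where 24.6% of all genes were called lower, and all 36 fell in the SL arm, where 24.4% were. The median log2 difference was -2.11 in the control arm and -2.22 in the SL arm, a fold of 4.33 and 4.66 in size, against -0.02 and 0.03 over all genes. This comparison shares the ED14.5 arrays with the one above, so the 2 are not independent. In bulk tissue fewer cells of a type and less RNA per cell cannot be told apart.

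The size of the fall ranged more widely among replication genes than among mitotic genes. Mcm6 read 11.35, 11.41, 11.45 and 11.41 on the ED14.5 control arrays and 10.66, 10.75, 10.33 and 10.38 on the liver control arrays. It fell by 0.88 ± 0.13 in the control arm and by 1.05 ± 0.16 in the SL arm (SE, n = 4 per group, limma adjusted p = 0.000256 and 0.000387). These were the smallest falls of the 36 in each arm, although the arrays of the 2 ages did not overlap. Pcna fell by 1.14 and 1.21 and Tyms by 1.54 and 1.74. The helicase subunits Mcm2, Mcm3, Mcm4 and Mcm5 fell by 2.22, 2.11, 1.84 and 2.16 in the control arm and by 2.48, 2.41, 1.93 and 2.50 in the SL arm. Cdc6 fell most of the replication genes, by 2.68 and 3.06, beside falls of 2.20 and 2.39 for Cdt1. Rrm1 fell by 1.79 and 1.87 and Rrm2 by 2.10 and 2.46.

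Among the mitotic genes the fall ran from 1.41 (Top2a) to 2.63 (Bub1) in the control arm and from 1.65 (Top2a) to 2.77 (Plk1) in the SL arm. Plk1, a kinase of mitotic entry and exit, read 11.27, 11.46, 11.47 and 11.65 on the ED14.5 control arrays and 8.69, 9.44, 8.74 and 8.59 on the liver control arrays. Its fall of 2.60 in the control arm had limma adjusted p = 2.69e-06. Mki67 fell by 1.58 and 1.79. Among the G1/S genes Mybl2 fell by 2.69 and 3.32, Ccne1 by 2.16 and 2.69, E2f1 by 2.12 and 2.62, Cdk2 by 1.54 and 1.81, and Ccne2 by 1.24 and 1.71.

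**Figure D3:**
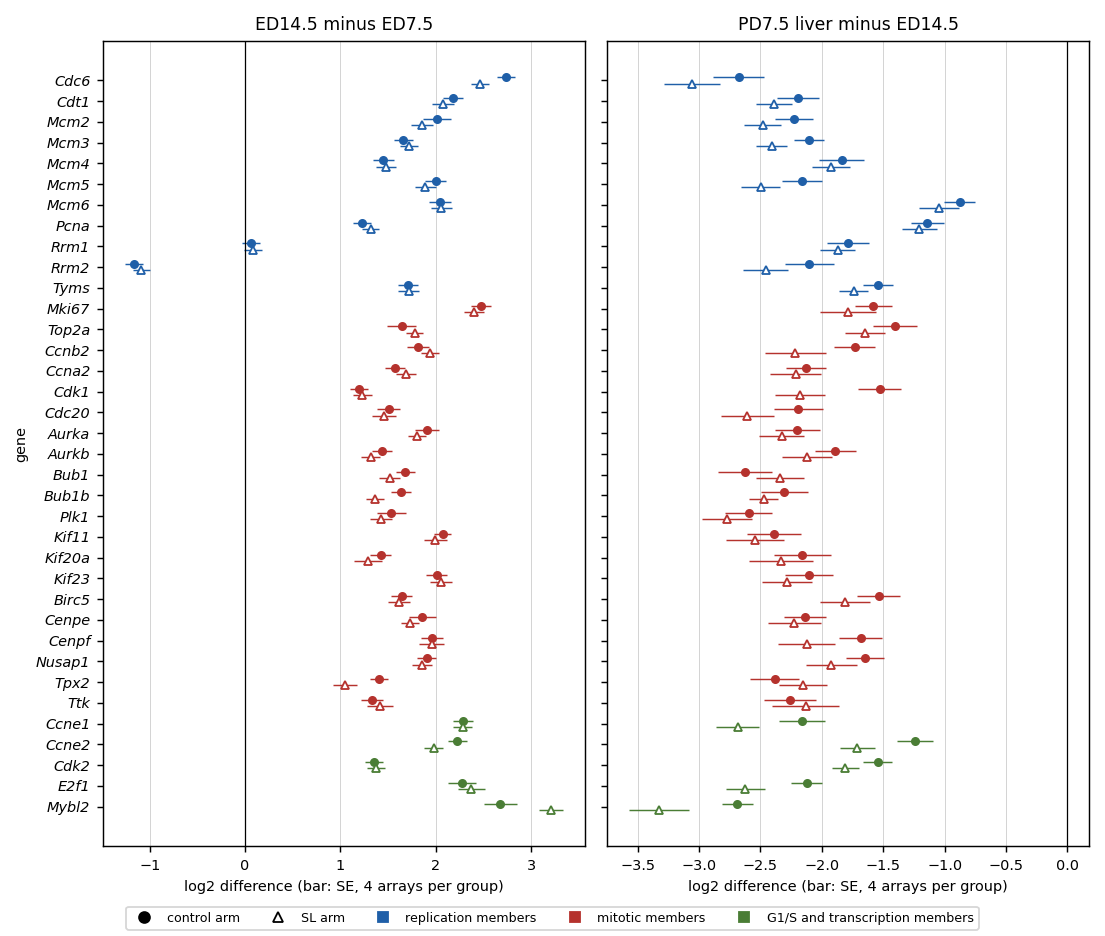
Log2 difference of each gene (vertical axis) between ED14.5 and ED7.5 (left) and between PD7.5 liver and ED14.5 (right), in the control arm (filled circles) and the SL arm (open triangles), with bars of 1 SE and 4 arrays per group. Rrm2 lies below 0 and Rrm1 at 0 on the left, where the other 34 genes lie above 0, and all 36 lie below 0 on the right.

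Over both arms, 8 arrays an age, the ED14.5 arrays all lay above the ED7.5 arrays for 34 genes, as for 19.1% of all genes, and all below them for Rrm2, as for 20.4% of all genes. The liver arrays all lay below the ED14.5 arrays for 36, as for 18.3% of all genes. Liver and ED7.5 arrays overlapped for 30 genes. Of the other 6, Mcm6 was higher in liver, as 14.2% of all genes were. Rrm1, Rrm2, Bub1b, Plk1 and Tpx2 were lower in liver, as 22.4% of all genes were. The mean log2 level of Rrm2 was 13.28 at ED7.5, 12.16 at ED14.5 and 9.88 in liver, and that of Rrm1 was 11.41, 11.48 and 9.65. These orders were not tested beyond the overlap of the arrays.

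Replication and mitotic genes were set side by side between the ages. The median change of the 11 replication genes minus that of the 20 mitotic genes was 0.06 in the control arm and 0.07 in the SL arm from ED7.5 to ED14.5, and 0.03 and -0.17 from ED14.5 to liver. With 1 array left out the last of these values ran from -0.30 to -0.04 and the value in the control arm from -0.000908 to 0.11. The medians themselves were 1.71 and 1.64 in the control arm and 1.72 and 1.65 in the SL arm for the first step. For the second they were -2.10 and -2.13 in the control arm and -2.39 and -2.21 in the SL arm. By mean level the replication genes lay above the mitotic genes by 0.89 at ED7.5, 0.63 at ED14.5 and 0.78 in liver (control arm). In the SL arm these gaps were 0.86, 0.63 and 0.75. By means, with Rrm1 and Rrm2 included, the replication genes thus rose less at the first step and fell less at the second. Means and medians differed in sign at the first step in both arms and at the second in the SL arm. Genes are not replicates, so these are descriptions without a test.

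Other genes of the cycle were counted from separate lists. Of 37 other replication genes, 37 rose from ED7.5 to ED14.5 in both arms, where 21.5% of all genes did, and 37 fell from ED14.5 to liver in both, where 20.4% did. Uhrf1, which maintains DNA methylation at the fork, rose by 2.74 and 2.61 in the control and SL arms, and Wdhd1, a replisome protein, by 2.48 and 2.58. Orc1 and Orc2, subunits of the origin recognition complex, fell by 2.74 and 2.88 in the control arm and by 2.47 and 2.81 in the SL arm, with Orc2 above background on 3 of 4 liver arrays in each arm. Of 47 other mitotic genes, 45 rose and 1 fell in both arms at the first step, and 46 fell in both at the second. Cdc25b, a phosphatase that activates Cdk1, rose by 2.88 and 2.98 and then fell by 2.93 and 3.18. Kif18a, a chromosome-aligning kinesin, rose by 2.45 and 2.57, and Kif18b fell by 2.69 and 2.81. The mitotic gene that fell at the first step was Cep55, of the midbody, by 1.12 in the control arm.

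Inhibitors of the cycle did not move as one group. Of 19 measured, 9 rose and 5 fell in both arms from ED7.5 to ED14.5, and 1 rose and 14 fell in both from ED14.5 to liver. Over all genes 21.5% rose and 22.9% fell in both arms at the first step, and 16.6% and 20.4% at the second, so the 26.3% of inhibitors that fell at the first step lay near the share of all genes. Rb1, the retinoblastoma protein, rose by 3.27 and 3.41 and Gadd45a, a stress-induced inhibitor, by 3.11 and 3.51, with 3 of 4 control arrays above background at ED7.5. Cdkn1a, the kinase inhibitor p21, fell by 1.89 and 2.32, and Ccng2, a cyclin that holds back the cycle, by 1.27 and 1.20. At the second step Rbl2, a relative of Rb1, rose by 0.46 and 0.65, and E2f4 and Cdkn2d fell by 2.46 and 2.28 in the control arm and by 2.51 and 2.68 in the SL arm. Cdkn2a and Cdkn2b were above background on no array. Of 9 other G1 cyclins, kinases and factors, 6 rose in both arms at the first step and 8 fell in both at the second. E2f2 rose by 6.00 and 6.07, from a group in which 3 of 4 control and 2 of 4 SL arrays were above background, and then fell by 2.78 and 3.13. Ccnd2, a D-type cyclin, rose by 2.80 and 2.31, with 2 of 4 control arrays above background at ED7.5, and Myc fell by 2.92 and 2.95 at the second step. E2f2, Ccnd2 and Gadd45a met the condition on background through the ED14.5 arrays, and ED7.5 values partly at background enter their differences, which are therefore imprecise in size.

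Markers of whole tissues also changed between the ages. Among the marker sets listed here, only the erythroid one rose and then fell in all of its measured markers, and other cell types were not listed. From ED7.5 to ED14.5 all 12 decidual markers fell and all 11 hepatocyte and all 11 erythroid markers rose in both arms. From ED14.5 to liver all 11 erythroid markers fell in both arms and 10 of 11 hepatocyte markers rose. All 10 Kupffer cell markers and 7 of 10 granulocyte markers rose in both arms at the first step, and 3 of 10 epiblast and 2 of 7 neuronal markers fell. Over all genes 21.5% rose and 22.9% fell in both arms at the first step, and 16.6% rose and 20.4% fell at the second. The epiblast and neuronal shares that fell, 30% and 28.6%, thus lay near the share of all genes. At the second step 7 of 10 Kupffer cell markers and 5 of 6 B lymphocyte markers rose in both arms, while 6 of 10 granulocyte markers rose and 4 fell. The summed signal of the erythroid markers (log2) ran from 9.70 to 10.03 on the ED7.5 arrays, from 15.06 to 15.33 on the ED14.5 arrays and from 11.60 to 13.32 on the liver arrays. The part of tissue composition in the changes of the cell cycle genes was not tested.

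The comparison of the SL with the control group at a fixed age gave no call among the 36 genes. All 12 decidual markers were above background on every ED7.5 array, so maternal tissue and grandoffspring cannot be told apart in the ED7.5 comparison. At ED7.5 limma called 0 of 36 at an adjusted p under 0.05, against 0.00513% of all genes. At an unadjusted p under 0.05 it gave 1 of 36, against 5.49% of all genes. At ED14.5 it called 0 of 36, against 0.0513% of all genes, and 1 of 36 at an unadjusted p under 0.05, against 11.4%. In liver it called 0 of 36, with 0 calls over all genes, and 1 of 36 at an unadjusted p under 0.05, against 7.91%. The 95% intervals bound the differences: they ran from -0.81 to 0.53 over the 36 genes at ED7.5, from -0.62 to 0.39 at ED14.5 and from -1.20 to 0.82 in liver. A p above the threshold does not show that the groups were alike.

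Ccne2, cyclin E2, gave the smallest p of the 36 at ED7.5 and in liver, in opposite directions. At ED7.5 Ccne2 read 7.83, 7.65, 7.60 and 7.80 on the control arrays and 7.90, 8.21, 7.96 and 7.96 on the SL arrays. All SL arrays were above all control arrays, with a difference of 0.28 ± 0.11 (SE, n = 4 per group, limma unadjusted p = 0.0274, adjusted p = 0.842). In liver Ccne2 read 8.87, 8.83, 8.81 and 8.29 on the control arrays and 8.02, 8.54, 8.44 and 8.09 on the SL arrays. The groups overlapped through control replicate 4, and the difference was -0.43 ± 0.18 (unadjusted p = 0.0405, adjusted p = 0.628, limma). The SL effect on Ccne2 in liver minus that at ED7.5 was -0.72 ± 0.18 in a limma fit of all 24 arrays (unadjusted p = 0.000691, adjusted p = 0.245). That fit takes a common spread for all groups, while the liver arrays spread more, so this SE and p may be too small. At ED14.5 Ccne2 differed by 0.04 (95% interval -0.15 to 0.23).

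At ED14.5 the smallest p belonged to Tpx2, a spindle assembly factor that activates Aurka. It read 10.96, 11.02, 10.90 and 11.03 on the control arrays and 10.36, 10.59, 10.68 and 10.93 on the SL arrays. SL replicate 4 lay within the control range, and the difference was -0.34 ± 0.13 (SE, n = 4 per group, limma unadjusted p = 0.0241, adjusted p = 0.359). Groups that did not overlap were seen for Cdk1, Ccnb2, Top2a and E2f1, all higher in SL, by 0.18, 0.16, 0.13 and 0.19. These were 4 of 36 genes, against 3.71% of all genes higher, 4.27% lower and 7.98% in either direction without overlap, and their limma adjusted p-values ran from 0.447 to 0.577. At ED7.5 the groups did not overlap for Ccne2 and Bub1b, both higher in SL, which is 2 of 36 against 1.56% of all genes higher, 1.48% lower and 3.05% in either direction. In liver 0 of 36 genes had groups without overlap, against 4.43% of all genes.

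**Figure D4:**
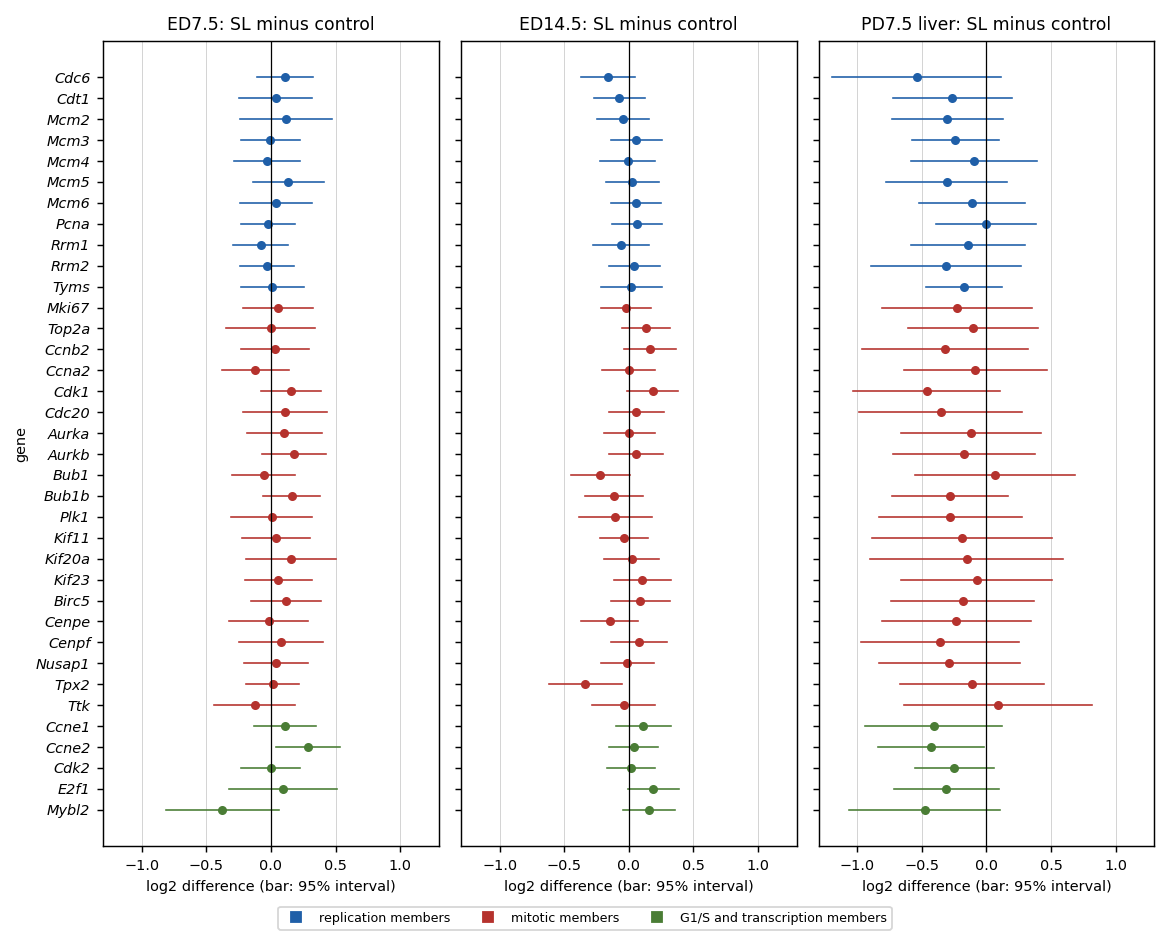
Log2 difference of SL minus control for each gene (vertical axis) at ED7.5, ED14.5 and in PD7.5 liver, with 95% intervals from limma and 4 arrays per group. The intervals are widest in liver, where 34 of 36 differences lie below 0.

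In liver the differences leaned one way. Of the 36 genes 34 had a mean below that of the control group, where 49.3% of all genes did, and the median difference was -0.24, against 0.003 over all genes. The median was -0.24 for the replication genes, -0.19 for the mitotic genes and -0.41 for the G1/S genes. The exceptions were Ttk (0.09) and Bub1 (0.07). At ED7.5 and ED14.5, 12 and 15 of the 36 genes lay below 0, against 49.5% and 50% of all genes. The lean was smaller without either of 2 arrays. Control replicate 2 was the highest of its group for 35 of the 36 genes, and SL replicate 4 was the lowest of its group for 32. Mki67, for example, read 11.26, 11.83, 11.18 and 11.34 on the control arrays and 11.71, 11.39, 11.11 and 10.49 on the SL arrays. Cdk1 read 8.66, 9.07, 8.38 and 8.23 on the control arrays and 8.58, 8.36, 7.97 and 7.56 on the SL arrays. For both genes the groups overlapped, and the highest control and lowest SL values were from those 2 arrays. Without control replicate 2 the median difference was -0.09 and 25 of 36 genes were lower in SL. Without SL replicate 4 the values were -0.06 and 23 of 36. Without both arrays, an alternative chosen after seeing the data, the median was 0.08 and 13 of 36 were lower. Since these arrays were picked as the extremes for these genes, their removal had to raise the median.

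The erythroid markers marked the same 2 arrays, and other blood cell markers did so in part, by rank within their groups. Their summed signal (log2) was 12.67, 13.32, 12.57 and 12.76 on the liver control arrays and 13.02, 12.66, 12.52 and 11.60 on the liver SL arrays, highest on control replicate 2 and lowest on SL replicate 4. All 11 erythroid markers had a lower mean in SL, with a median difference of -0.56, and limma called 0 of them. The B lymphocyte sum was also highest of its group on control replicate 2 (9.79) and lowest of its group on SL replicate 4 (9.71). The granulocyte sum was highest of its group on control replicate 2 (13.32) but not lowest on SL replicate 4 (13.30). Between the groups, the mean B lymphocyte sum was higher in SL (9.99 against 9.53), as was the granulocyte sum (13.30 against 13.01). The mean erythroid sum was lower in SL (12.45 against 12.83), as was the Kupffer cell sum (12.45 against 12.66). The hepatocyte sum was 16.84 to 16.90 on the control arrays and 16.87 to 16.92 on the SL arrays. The part of the cells with these markers in the lean of the cell cycle genes was not tested.

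**Figure D5:**
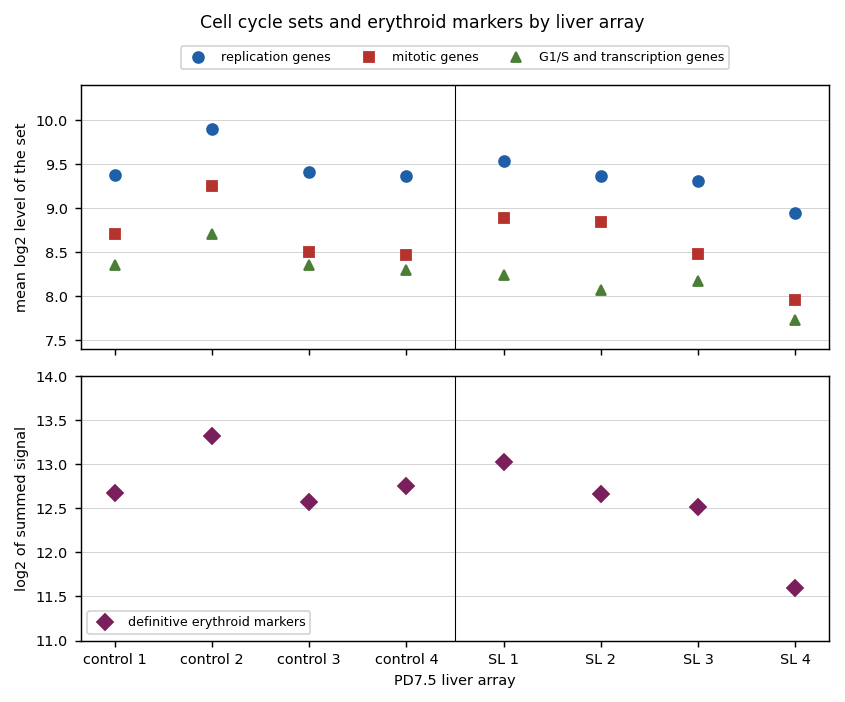
Mean log2 level of the replication, mitotic and G1/S genes (upper) and log2 of the summed signal of the 11 definitive erythroid markers (lower) on each of the 8 liver arrays. Control replicate 2 is highest and SL replicate 4 is lowest in both panels, at 13.32 and 11.60 for the erythroid markers.

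At ED7.5 a single array stood out in a similar way. SL replicate 2 was the highest of its group for 28 of the 36 genes, and it had the lowest decidual marker sum (15.23 log2, against 15.37 to 15.51 on the other SL arrays) and the highest neuronal marker sum (11.26, against 10.21 to 10.97). Of the 7 neuronal genes only 3 were above background on all ED7.5 SL arrays, and Dcx, Elavl3, Elavl4 and Snap25 were on none. SL replicate 2 also had the lowest granulocyte (10.03), epiblast (8.52) and B lymphocyte (8.41) sums of its group. The median SL difference of the 36 genes at ED7.5 was 0.04, and it was -0.02 with 22 of 36 genes below 0 without that array. Since that array was picked as the extreme for these genes, its removal had to lower the median. Over all ED7.5 arrays left out in turn the median SL difference ran from -0.02 to 0.10. The part of these markers was not tested.

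The SL effect was also compared between ages, in a limma fit of all 24 arrays. Where ED7.5 enters, maternal tissue and grandoffspring cannot be told apart here either. Between ED7.5 and ED14.5 it differed for 0 of 36 genes at an adjusted p under 0.05 and for 0 at an unadjusted p under 0.05, against 0.0769% and 6.92% of all genes. Between ED14.5 and liver the counts were 0 and 5, against 0.0256% and 10.6%. Between ED7.5 and liver they were 0 and 6, against 0.00513% and 9.19%. Cdk1 had the smallest p between ED14.5 and liver, where the SL effect in liver minus that at ED14.5 was -0.65 ± 0.24 (SE, limma adjusted p = 0.34). For the SL differences the median of the replication genes minus that of the mitotic genes was -0.04 at ED7.5, 0.02 at ED14.5 and -0.06 in liver, and in liver it ran from -0.16 to 0.07 with 1 array left out.

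The other lists of cell cycle genes gave 0 calls in each SL comparison. At an unadjusted p under 0.05 limma gave 1 of 37 other replication genes at ED7.5, 9 at ED14.5 and 4 in liver, and 0, 5 and 2 of 47 other mitotic genes, where 5.49%, 11.4% and 7.91% of all genes passed. The smallest p at ED14.5 was that of Tk1, thymidine kinase, higher in SL by 0.44 (adjusted p = 0.172), beside Chaf1b, a histone chaperone, at 0.28. Hmmr and Kif20b, spindle proteins, differed there by -0.31 and -0.23. At ED7.5 Gmnn, geminin, the inhibitor of Cdt1, differed by -0.40 and Wdhd1 by -0.29, and of the mitotic genes Cenpk by -0.26 and Ube2c by 0.24. In liver Gins2 and Pole2, of the replisome, differed by -0.47 and -0.42, and Cenpn and Cdc25c by -0.59 and -0.94, the latter above background on 3 control and 1 SL array.

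Among inhibitors and other G1 genes the smallest p-values in each SL comparison, 0 of them called, fell to Cdk6 (-0.42), Rb1 (-0.34), Btg2 (0.21) and Ccnd3 (0.20) at ED7.5. At ED14.5 they fell to Ccnd2 (-0.45), E2f7 (0.31), Skp2 (-0.27) and Wee1 (-0.27). In liver they fell to Cdkn1a (-0.46), Wee1 (-0.32), Skp2 (-0.28) and Ccnd2 (-0.25). The values in parentheses are log2 differences of SL minus control.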

How the data were processed

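The authors deposited 1 log2 value per probe set and array, made with RMA in the oligo package, per the submitters' processing notes. Their versions, and whether the 24 arrays went through RMA as 1 set, are not stated in the sources at hand, and the log2 scale was taken from the method and the range of the values. Because RMA sets the arrays to a common distribution, differences are relative to all genes on an array. No further normalization was applied.

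Of 29129 rows, 6923 were control features. Of the rest, 19572 named exactly 1 gene in GEO's platform annotation and 2634 named none. The brightest probe set stood for each of the 55 genes with several, which left 19505 genes. Each difference was fitted over all of these with limma 3.58.1 (R 4.3.3) on the 8 arrays compared, and differences of the SL effect on all 24. The fit of all 24 takes a common spread per gene for all groups, so its SEs for differences with liver may be too small. P-values were two-sided. The fit was tested on simulated data. The number of arrays limits the precision: the median SE over the 36 genes was 0.12, 0.09 and 0.25 (log2) for SL minus control at ED7.5, ED14.5 and in liver.

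All measured genes of the list are named. Of the other lists, the 2 genes with the smallest p per list are named in each SL comparison, and in the age comparisons the 2 with the largest rise and the 2 with the largest fall per list, among genes called in both arms and above background on all arrays of a group. The members and lists were chosen with earlier results of these data known. Alternatives were an intensity trend with robust prior, array weights, a block for replicate number, a filter that removed the 33% of genes with the lowest means, the mean of a gene's probe sets, a fit of all 24 arrays, quantile normalization of the arrays compared, and leaving out each array in turn. Any pair of arrays of a group held exactly equal values for at most 1 gene. Promoter sequences are from RefSeq (GRCm38.p6).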

Additional observations from a re-analysis of the deposited data

Results flagged for a closer look

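Within each group of 4 arrays the highest or lowest value of a gene was compared with its nearest neighbour, and 15 of 216 gene and group combinations held a value far from the other 3 by Dixon's criterion. Chance flags about 1 in 20. None of their causes was tested. In liver the far values were those of control replicate 2 for Rrm2 (10.70, nearest 9.84) and Nusap1 (10.72, nearest 10.15), of control replicate 4 for Ccne2 (8.29, nearest 8.81) and of SL replicate 4 for Rrm1 (9.23, nearest 9.67). At ED7.5 they were those of control replicate 4 for Mcm6 (9.62), control replicate 1 for Pcna (11.24), control replicate 2 for Tpx2 (9.68), SL replicate 4 for Tyms (8.73) and Top2a (8.93), SL replicate 2 for Ccna2 (10.56) and SL replicate 1 for Ttk (7.94). At ED14.5 they were those of SL replicate 1 for Rrm1 (11.26), SL replicate 4 for Top2a (10.78) and Ccnb2 (11.53), and control replicate 2 for Ccnb2 (11.37).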

How the results depend on the processing

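The count of called genes among the 36 was the same under every alternative run: 0 in each SL comparison, 35 in each arm from ED7.5 to ED14.5, 36 in each arm from ED14.5 to liver and 0 for each difference of the SL effect between ages. Gene by gene, the alternatives were followed for the 36 genes in the age comparisons and for a few of them in each SL comparison. None of these crossed the threshold, and no called one changed sign. Named genes of the other lists were not followed under the alternatives. A replicate block gave the same counts, 0 in each SL comparison. Over all genes, a fit of all 24 arrays called 5 for SL in liver, against 0 from the 8 arrays alone. Correlations of same-numbered arrays ran from -0.17 to 0.12 over the SL comparisons and were not all over 0.1 in any, so the numbers were not taken to pair the samples. In liver 3 of 4 arrays correlated best with their own number, a pattern in the data and not the design. The same 3 of 4 was found between the ED14.5 and ED7.5 arrays of the SL arm, which differ in age. This count was therefore not taken as a sign of pairing. Leaving out 1 array moved the median change of replication minus mitotic genes within -0.0251 to 0.0344 for SL at ED14.5, the lowest without ED14.5 control replicate 1, and within 0.0441 to 0.14 for the age difference in the SL arm, the highest without ED7.5 SL replicate 3. For SL in liver the number of genes below 0 ran from 23 to 36 with 1 array left out, and at ED7.5 from 8 to 22. All 36 genes lay above a stricter background, the 90th percentile of the control features, on 21 of the 24 arrays.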
